A study of Mus musculus with 6 samples.

Results

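The genes described here encode the proteins of the mitochondrial ribosome, taken as every gene whose symbol begins with Mrpl or Mrps followed by a number, pseudogenes left out. Of 13817 genes measured by a probe set with a single gene symbol, 76 met this name rule, and their symbols, not their values, chose them. They were measured by 141 of the 30618 probe sets, and each gene was read at its brightest probe set, the one with the highest mean over all arrays. By subunit, 49 belonged to the large and 27 to the small ribosomal subunit, with Mrps30 and Mrps18a counted as large subunit proteins despite their names. Among 78 mouse genes in RefSeq that meet the rule, Mrpl30 and Mrpl53 were read only by probe sets shared with another gene and were not analysed here. Mrps36 met the name rule and was kept, although it has since been described as a part of the oxoglutarate dehydrogenase complex.

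Pieces of the tibial plateau, articular cartilage with the subchondral bone below it, were taken from 6 male C57Bl/6J mice aged 6 weeks, and the RNA of 1 joint per mouse was hybridised to an Affymetrix whole-genome mouse array. Animals 6-1, 8-1 and 9-1 were wild-type, and animals 14, 17 and 6 were labelled Frzb-/-, that is, genetically deficient in frizzled-related protein, a secreted antagonist of WNT signalling, on the same background. The study left out 1 presumed knockout that proved heterozygous on repeat genotyping, and describes its profile as wild-type-like without giving its number. Animal 6 is labelled Frzb-/- and is shown apart here, and the comparison was made between the wild-type mice and animals 14 and 17.

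The dissected piece held trabecular bone, marrow and the upper growth plate besides articular cartilage, so in these bulk samples fewer cells of a type and less RNA per cell cannot be told apart. Expression values are log2 values after Robust Multiarray Averaging (RMA), a difference of 1 being a doubling, and the number of arrays limits their precision. At its brighter probe set Frzb read 10.02, 10.79 and 10.16 in the wild-type mice, 7.02 and 6.42 in animals 14 and 17, and 6.93 in animal 6. The Frzb level of animal 6 thus lay with those of animals 14 and 17, not between them and the wild-type mice. The log2 differences of animals 14 and 17 from the wild-type mice were -3.606 for Frzb, -3.152 for Rhd and 2.26 for Col14a1. These equal the values the study printed, so animals 14 and 17 were the knockouts it analysed. Animal 6 was therefore the mouse it left out as heterozygous, although its Frzb level was low. The cartilage markers Col2a1 and Acan were high in every array, from 14.56 to 14.74 (log2) and from 12.77 to 13.37. None of the 8 chondrocyte markers passed an adjusted p of 0.05 in animals 14 and 17, with log2 differences from -0.86 (Matn3) to 0.24 (Comp). All 6 erythroid, all 9 neutrophil and all 7 proliferation markers were down-regulated and all 6 fibroblast markers up-regulated. Other lists were mixed. Of 7 B cell markers 4 were down-regulated, of 6 macrophage markers 2 were down- and 1 up-regulated, and of 6 endothelial markers 1 and 2. The 8 skeletal muscle markers read from 12.07 to 14.61 over all arrays, although muscle is no part of the labelled tissue.

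Mitochondria keep a small genome of their own and translate its messages on a dedicated ribosome, whose products are core subunits of the respiratory chain and of ATP synthase. The RNA of this ribosome is transcribed inside mitochondria, but its proteins are encoded by nuclear genes, made in the cytosol and imported. Many of them descend from bacterial ribosomal proteins and others are found only in mitochondria. The nuclear factors NRF1, GABP (an ETS family factor) and YY1 are known regulators of nuclear genes for mitochondrial proteins.

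The member genes are spread over 17 chromosomes, with 11 on chromosome 11 and 8 on chromosome 17. None lies within 10 Mb of Frzb on chromosome 2, a chromosome that holds 4 of them. A promoter window from 250 bases before to 50 bases after the annotated start was given by RefSeq (GRCm38.p6) for 67 of the 76. The core ETS motif CCGGAAG was present on either strand in 35.8% of these windows and in 16.6% of the windows of 11039 measured genes. The NRF1 motif, GCGCA and GCGC with any base between them, was present in 17.9% against 9.64%, and the core YY1 motif AGATGGC in 17.9% against 6.88%. The Sp1 box GGGCGG was held by 50.7% against 61.2%, and the E-box CACGTG by 7.46% against 9.79%. None of these motifs contains another, a match is only a run of letters, and no test was made of the shares.

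A head-to-head neighbour, that is a protein-coding gene on the opposite strand starting within 1000 bases, was found for 23 of the 67 members (34.3%) and for 11.3% of the 11039 genes. The starts lay between 32 and 935 bases apart, with a median of 141. The bases between the annotated ends of both genes are shown for 6 such pairs, to let the short stretches that separate these genes from their neighbours be read. Not every pair has such a stretch. The annotated genes overlap in others, among them Mrpl57 with Ska3 and Mrpl27 with Eme1. They are written on the strand of the member, with the ETS, NRF1 and Sp1 matches in capitals, and the partners are Helq, Ncapd2, Ppp1r10, Psma2, Ptcd2 and Mrpl46 in that order.
Mrps18c, chr5:100798662-100798758, plus strand: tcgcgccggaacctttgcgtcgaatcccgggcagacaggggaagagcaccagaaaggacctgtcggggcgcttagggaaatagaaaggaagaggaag
Mrpl51, chr6:125192101-125192199, plus strand: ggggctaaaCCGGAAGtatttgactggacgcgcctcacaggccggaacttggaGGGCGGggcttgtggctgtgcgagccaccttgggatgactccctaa
Mrps18b, chr17:35916441-35916511, minus strand: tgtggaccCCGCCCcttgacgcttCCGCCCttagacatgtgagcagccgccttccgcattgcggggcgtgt
Mrpl32, chr13:14613038-14613241, minus strand: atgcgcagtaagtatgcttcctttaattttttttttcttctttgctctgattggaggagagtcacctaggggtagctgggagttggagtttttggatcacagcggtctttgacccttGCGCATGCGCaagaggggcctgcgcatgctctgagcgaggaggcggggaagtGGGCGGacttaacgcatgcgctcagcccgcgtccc
Mrps27, chr13:99344679-99344766, plus strand: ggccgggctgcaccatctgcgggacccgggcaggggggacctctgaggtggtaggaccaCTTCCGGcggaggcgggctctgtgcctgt
Mrps11, chr7:78783090-78783130, plus strand: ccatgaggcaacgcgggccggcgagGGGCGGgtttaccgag

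Expression of the mitochondrial ribosomal protein genes in Frzb-/- joints lay close to that in wild-type joints. At the threshold of the study (adjusted p below 0.01 and an absolute log2 difference above 1), 0 of 76 members were lower and 0 higher, against 6.02% of all genes lower and 3.03% higher. At an adjusted p below 0.05 with no fold minimum, 1 member was down-regulated, Mrps18c, and 0 were up-regulated, against 15.3% and 13.8% of all genes (limma, Benjamini-Hochberg adjustment over all 30618 probe sets). At an unadjusted p below 0.05, 3 members were lower (Mrps18c, Mrpl19 and Mrpl20) and 1 was higher (Mrpl48), against 20.6% and 21% of all genes. The log2 differences ran from -0.41 to 0.36, with 38 below and 38 above 0.

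The size of the differences can be bounded. The median absolute log2 difference was 0.093 for the members and 0.28 for all genes. The 95% confidence interval lay inside -1 to 1 for 76 of 76 members and for 77.4% of all genes, and inside -0.5 to 0.5 for 50 members and 31.4% of all genes. The outermost interval limits over all members were -0.69 and 0.90. The intervals were not narrower than elsewhere on the array, since their median half-width was 0.335 for the members and 0.333 for all genes.

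**Figure D1:**
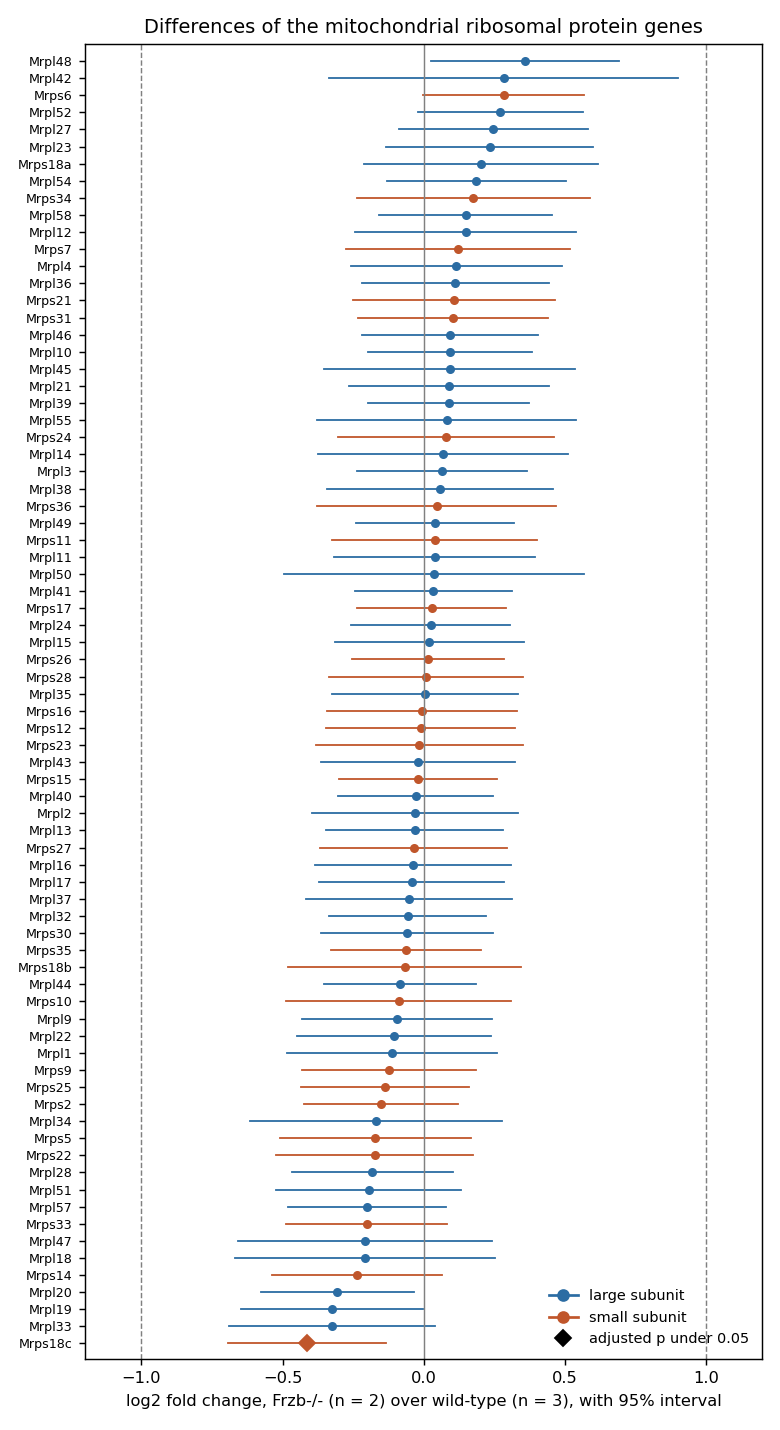
Log2 difference between the Frzb-/- mice 14 and 17 and the 3 wild-type mice for each of the 76 genes (x axis, points with 95% intervals), ordered by size and coloured by subunit, with dashed lines at -1 and 1. All intervals lie between the dashed lines, and Mrps18c at -0.41 is the one member with an adjusted p below 0.05.

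The same held for each subunit. The median log2 difference was 0.02 over the 49 large subunit genes and -0.02 over the 27 small subunit genes, beside 0.04 for all genes. Of the large subunit genes 22 were below and 27 above 0, and of the small subunit genes 16 and 11. The 45 members with a bacterial counterpart had a median of -0.01 and the 31 without one a median of 0.03. Neither pair of medians was tested.

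Mrps18c encodes 1 of the 3 mammalian proteins related to bacterial ribosomal protein S18. It read 10.17, 10.02 and 10.06 in the wild-type mice, 9.63 and 9.71 in animals 14 and 17, and 10.11 in animal 6. The wild-type and knockout values did not overlap, and animal 6 lay within the wild-type range. The log2 difference was -0.41 (SE 0.12, 95% interval -0.69 to -0.13, limma adjusted p = 0.0418). The call was lost when any 1 of the 5 mice was left out, with log2 differences of -0.45 to -0.37 and adjusted p values of 0.0851 to 0.128, and with animal 6 counted as a knockout (-0.27, adjusted p = 0.481). The other proteins of this kind, Mrps18a and Mrps18b, differed by 0.20 and -0.07 (limma adjusted p = 0.433 and 0.804).

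In the large subunit the lowest differences belonged to Mrpl33, Mrpl19 and Mrpl20, each with a bacterial counterpart, and none passed the test after adjustment. These and the other members described singly from here on were chosen after their values were seen, unless a rule is named. Mrpl33 read 10.84, 10.67 and 10.60 in the wild-type mice against 10.56 and 10.20 in animals 14 and 17 (log2 difference -0.32, SE 0.15, limma adjusted p = 0.169). Mrpl19 read 8.45, 8.38 and 8.19 against 7.92 and 8.12 (-0.32, SE 0.14, limma adjusted p = 0.127). Mrpl20 read 10.31, 10.24 and 10.22 against 9.99 and 9.91 (-0.31, SE 0.11, limma adjusted p = 0.0928). In all 3 genes both knockouts lay below the wild-type mice. Animal 6 lay below the wild-type mice too for Mrpl19 (8.17) and Mrpl20 (9.99), but not for Mrpl33 (10.62).

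The highest difference was that of Mrpl48, a large subunit protein without a bacterial counterpart. It read 9.78, 9.53 and 9.46 in the wild-type mice, 9.88 and 10.02 in animals 14 and 17, and 9.55 in animal 6. Both knockouts were above the wild-type mice, and the log2 difference was 0.36 (SE 0.14, 95% interval 0.02 to 0.69, limma adjusted p = 0.106). Mrpl42, likewise without a bacterial counterpart, had the widest interval of the members (-0.33 to 0.90), its wild-type values spreading from 10.88 to 11.66. In the small subunit Mrps6 differed by 0.28 (SE 0.12, limma adjusted p = 0.13) and Mrps14 by -0.24 (SE 0.13, limma adjusted p = 0.217).

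Counted by overlap, both knockouts were below every wild-type mouse in 13 of 76 members and above every wild-type mouse in 3, against 28.1% and 31% of all genes. The 13 were Mrps18c, Mrpl33, Mrpl19, Mrpl20, Mrps14, Mrps33, Mrpl57, Mrpl51, Mrpl28, Mrps5, Mrps2, Mrpl44 and Mrps35. The 3 were Mrpl52, Mrps6 and Mrpl48.

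The choice of probe set changed a call for 3 members. Of the 76 genes, 35 had more than 1 probe set, and among their 65 dimmer probe sets 36 had the sign of the brightest and 29 the other sign. None of the 141 passed the threshold of the study, against 7.43% of all probe sets, and beside Mrps18c 3 dimmer probe sets passed an adjusted p of 0.05 (limma), against 26.5% of all probe sets in either direction. For Mrpl48 the dimmest of 3 probe sets read 5.65, 5.42 and 5.58 in the wild-type mice against 6.29 and 6.09 in animals 14 and 17 (log2 difference 0.64, limma adjusted p = 0.0141), the same direction as at its brightest. For Mrpl11, whose bacterial counterpart lies where the elongation factors bind, the dimmest of 4 differed by -0.46 (limma adjusted p = 0.0361) and the brightest by 0.04 (adjusted p = 0.871). For Mrps9 the dimmest of 4 differed by -0.54 (limma adjusted p = 0.0418) and the brightest by -0.12 (adjusted p = 0.523). The remaining Mrps9 probe sets differed by -0.05 and 0.06. Among the brightest probe sets, 7 end in _s_at and 2 in _x_at, suffixes that mark probes shared with other transcripts.

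A regular order of the mice ran through the members. Wild-type animal 6-1 was the highest of the 3 wild-type mice in 69 of 76 members, against 34.7% of all genes. Animal 17 was above animal 14 in 62 of 76, against 40.9%. Animal 6 was below every wild-type mouse in 49 of 76 and above every one in 3, against 27.6% and 27.3%. Taken as the median over members of the log2 value minus the wild-type mean of the gene, animals 6-1, 8-1 and 9-1 lay at 0.16, -0.05 and -0.10, animals 14 and 17 at -0.08 and 0.06, and animal 6 at -0.17. Both knockouts therefore lay inside the range of the wild-type mice by this measure, and animal 6 lay outside it.

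**Figure D2:**
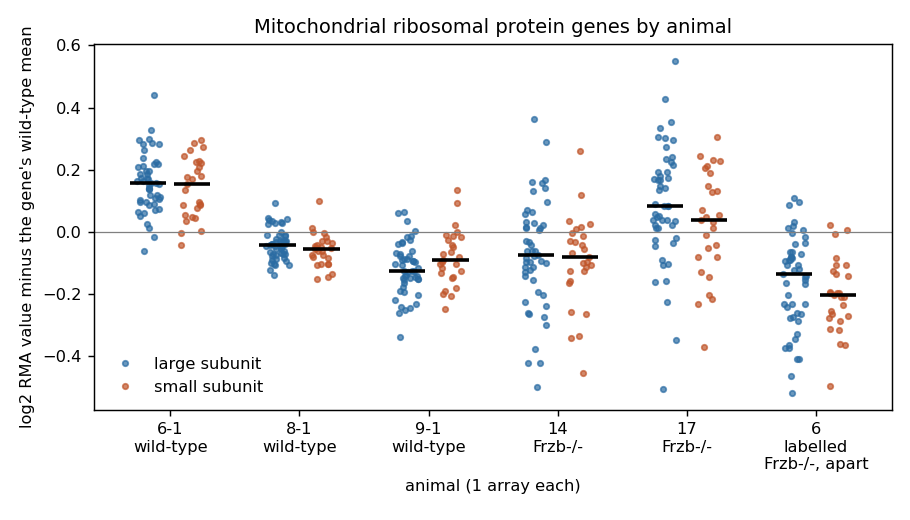
Log2 RMA value minus the wild-type mean of the same gene (y axis) for each of the 76 genes in each of the 6 animals (x axis), large and small subunit side by side, black bars marking the medians. Animal 6-1 sits highest and animal 6 lowest in both subunits, with small subunit medians of 0.15 and -0.20.

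In animal 6 the median log2 difference from the wild-type mice was -0.14 in the large and -0.20 in the small subunit, and 67 of 76 members were below 0, against 49.8% of all genes. None passed an adjusted p of 0.05 in a fit of all 6 arrays, in which the spread of this single animal was taken from the other groups (limma), and 0.0217% of all genes did. At an unadjusted p below 0.05 there was 1 member, against 5.59% of all genes. The 3 members farthest from the wild-type mean were Mrpl42 (-0.52), Mrps27 (-0.50, the one at an unadjusted p below 0.05) and Mrpl38 (-0.46), with limma adjusted p values of 0.79, 0.678 and 0.714. Mrps27, a small subunit protein of the pentatricopeptide repeat family, read 7.36, 7.20 and 7.06 in the wild-type mice, 7.08 and 7.26 in animals 14 and 17, and 6.71 in animal 6. For this gene animals 14 and 17 lay within the wild-type range and animal 6 lay below all the other mice.

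Much of this order was seen in other mitochondrial genes and in muscle markers too. For 63 nuclear genes of the respiratory chain the medians were 0.28, -0.05 and -0.24 in animals 6-1, 8-1 and 9-1, -0.04 and 0.23 in animals 14 and 17, and -0.38 in animal 6. For 18 abundant mitochondrial proteins of other functions animal 6-1 was the highest wild-type mouse in 14 and animal 6 was below every wild-type mouse in 14. All 8 skeletal muscle markers were highest among wild-type mice in animal 6-1, higher in animal 17 than in animal 14, and lowest of all in animal 6. Their summed level on the linear scale was 153394, 114947 and 102027 in animals 6-1, 8-1 and 9-1, 131272 and 154247 in animals 14 and 17, and 69307 in animal 6. The summed level of the 76 members ran 67761, 58927 and 56752, then 58208 and 64222, then 54245. Cytosolic ribosomal protein genes did not show it, animal 6-1 being the highest wild-type mouse in 7 of 46. Between animals 14 and 17 and the wild-type mice 0 of 8 muscle markers passed an adjusted p of 0.05 (limma; 0 also at an unadjusted p below 0.05). The part of muscle RNA in the values of the members was not tested.

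**Figure D3:**
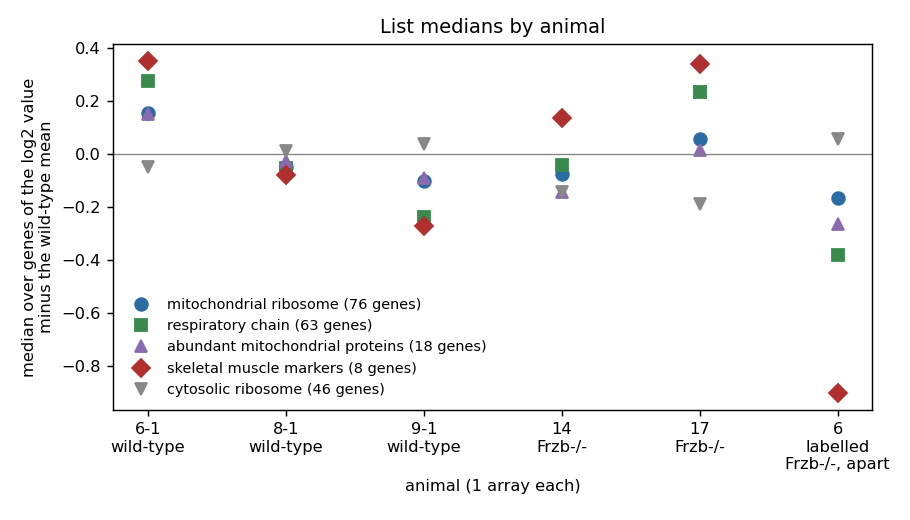
Median over the genes of a list of the log2 value minus the wild-type mean (y axis) in each of the 6 animals (x axis), 1 symbol per list. The mitochondrial ribosome, respiratory chain and skeletal muscle symbols are highest among wild-type mice in animal 6-1 and lowest in animal 6, where they stand at -0.17, -0.38 and -0.90, while the cytosolic ribosome stands at 0.06 in animal 6.

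The regulators of mitochondrial biogenesis gave another picture. Of 10 measured, 5 were down-regulated in animals 14 and 17 and 0 up-regulated at an adjusted p below 0.05 (limma), against 15.3% and 13.8% of all genes, with a list median of -0.51. Nrf1, the gene of NRF1 itself, read 7.81, 7.89 and 8.09 in the wild-type mice, 7.36 and 7.29 in animals 14 and 17, and 8.10 in animal 6 (log2 difference -0.61, SE 0.13, limma adjusted p = 0.0166). Myc, a general growth regulator, read 8.54, 8.61 and 8.69 against 7.90 and 7.74 (-0.79, SE 0.12, limma adjusted p = 0.0049). Yy1 read 10.63, 10.78 and 10.64 against 10.03 and 10.05 (-0.65, SE 0.12, limma adjusted p = 0.0088). In all 3 genes animal 6 was above every wild-type mouse, at 8.10 for Nrf1, 8.82 for Myc and 10.90 for Yy1. Over the 10 regulators animal 6 was above every wild-type mouse in 6 and below every one in 3. For all genes the shares were 27.3% and 27.6%. Ppargc1a read 7.43, 6.91 and 6.58 in the wild-type mice, 6.03 and 7.09 in animals 14 and 17, and 5.31 in animal 6. Esrra and Ppargc1b were also lowest in animal 6. The others that fell in animals 14 and 17 were Gabpb1, a GABP subunit (-0.62), and Hcfc1, a chromatin cofactor (-0.61). Gabpa, the DNA-binding GABP subunit, differed by 0.14 and Ppargc1b, a coactivator, by 0.21, neither passing. The count of 5 was 3 without animal 8-1, 3 without 9-1, 2 without 17 and 0 with animal 6 counted as a knockout, and 0 without moderation of the variances. For the settings with animal 6 as a knockout and without moderation, the share of all genes called is not given here. The summed linear level of the 6 erythroid markers was 17122 to 23732 in the wild-type mice. It was 3625 and 2607 in animals 14 and 17, and 22549 in animal 6. The part of the marrow cells in the fall of the regulators was not tested.

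Members with and without the corresponding motifs in their promoter windows had similar medians. The median log2 difference was -0.01 for the 12 members with an NRF1 match and -0.01 for those without. It was -0.03 for the 24 with an ETS match and 0.03 for the rest, and 0.04 for the 12 with a YY1 match and -0.02 for the rest. The same medians over all measured genes with a window were -0.01 and 0.04 for NRF1, -0.04 and 0.05 for ETS, and -0.00 and 0.04 for YY1. These are descriptions without a test.

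Genes of other proteins that build or use the mitochondrial ribosome were counted in the same way. Of 25 factors for assembly of the ribosome and handling of its RNA, 3 were down-regulated and 0 up-regulated, with a median of -0.00. With 15.3% of all genes down-regulated, this count is no higher than that of the array at large. The 3 were Rmnd1, which is needed for mitochondrial translation (-0.64, limma adjusted p = 0.0135), Tfb1m, which methylates the small ribosomal RNA (-0.63, adjusted p = 0.0179), and Pnpt1, a mitochondrial polynucleotide phosphorylase (-0.57, adjusted p = 0.0271). Tfb1m read 8.47, 8.26 and 8.26 in the wild-type mice, 7.58 and 7.82 in animals 14 and 17, and 8.33 in animal 6. The count of 3 was 2 without animal 6-1, 14 or 9-1, 1 without 17 and 0 without 8-1. None passed among 11 translation factors (0 lower, 0 higher; 1 at an unadjusted p below 0.05), 18 genes for charging mitochondrial tRNAs, that is synthetases and the glutamyl-tRNA amidotransferase subunits Gatb, Gatc and Qrsl1 (0 and 0; 1), and 13 genes for replication and transcription of mitochondrial DNA (0 and 0; 3), all by limma at an adjusted p below 0.05. Of the respiratory chain genes 1 of 63 was down-regulated, Cox6b2, a cytochrome oxidase subunit known from testis (-1.68, limma adjusted p = 0.00102), and of the abundant mitochondrial proteins Hspd1 (-0.45) and Tomm22 (-0.38) were down-regulated. Of 46 cytosolic ribosomal protein genes 1 was down-regulated and 3 were up-regulated, with Rpl39l (0.71) and Rps4l (0.67), both names of paralogues of a core ribosomal protein, the farthest from 0 and a list median of -0.15. Of the 46, 41 were below 0 and 5 above. Both knockouts lay below every wild-type mouse in 30 and above every one in 4, against 28.1% and 31% of all genes.

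Proteins of the mitochondrial ribosome whose symbols do not begin with Mrpl or Mrps were read for 4 genes. Gadd45gip1, a large subunit protein also known as Mrpl59, read 9.34, 8.82 and 8.76 in the wild-type mice, 7.54 and 8.41 in animals 14 and 17, and 7.77 in animal 6 (log2 difference -0.996, SE 0.287, limma adjusted p = 0.043). Animals 14 and 17, and animal 6 shown apart, lay below the wild-type mice for this gene. Its log2 difference was larger in size than that of any of the 76 members. Its call was lost on leaving out any mouse but animal 17. The small subunit proteins Dap3 (-0.26), Ptcd3 (-0.23) and Chchd1 (0.27) did not pass.

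**Figure D4:**
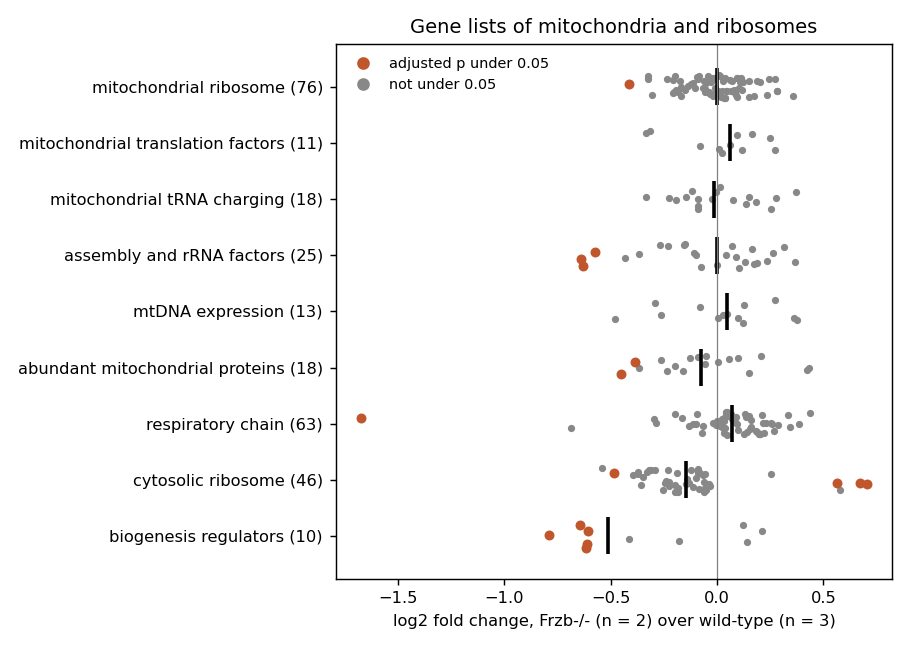
Log2 difference between the Frzb-/- mice 14 and 17 and the 3 wild-type mice (x axis) for each gene of 9 lists (rows, with the number of genes measured), black bars marking the medians and orange points an adjusted p below 0.05. The mitochondrial ribosome is centred on 0 with 1 orange point, whereas the biogenesis regulators have a median of -0.51 and 5 orange points.

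The head-to-head gene pairs set a mitochondrial ribosomal protein gene beside a neighbour that starts close by. Apart from the pair Mrps11 and Mrpl46, in which both are members, 19 members had a measured neighbour. Of these 19 neighbours 5 were down-regulated and 1 up-regulated at an adjusted p below 0.05 and 2 passed the threshold of the study. For all genes the shares were 29% in either direction and 9.05% at the threshold of the study, so the neighbours were called about as often as genes on the array at large. Of the 19 members 1 passed, Mrps18c. The number of down-regulated neighbours was 3 without animal 6-1, 8-1 or 17, 4 without 9-1 and 5 without 14, and none was up-regulated on leaving out any mouse. The median log2 difference was -0.26 over the neighbours and -0.03 over their members, and the neighbour had the larger absolute difference in 15 of the 19 pairs. The median absolute log2 difference was 0.28 for all genes and 0.093 for the 76 members. A gene set beside a member would thus often show the larger difference without being its neighbour. The pairs described singly were chosen after their values were seen.

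Mrpl57, a mitochondria-specific large subunit protein, starts 76 bases from Ska3, a gene for a protein of the spindle and kinetochore. Ska3 read 6.34, 6.45 and 6.78 in the wild-type mice, 5.27 and 4.58 in animals 14 and 17, and 6.57 in animal 6 (log2 difference -1.60, SE 0.23, 95% interval -2.15 to -1.05, limma adjusted p = 0.00396). Mrpl57 read 10.44, 10.32 and 10.48, then 10.18 and 10.25, then 10.52 (-0.20, SE 0.12, 95% interval -0.48 to 0.08, limma adjusted p = 0.259). The intervals of both genes did not overlap.

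Mrpl51 and Ncapd2, a condensin subunit needed for mitotic chromosomes, start 614 bases apart. Ncapd2 read 9.68, 9.71 and 10.12 in the wild-type mice, 8.60 and 7.99 in animals 14 and 17, and 10.06 in animal 6 (log2 difference -1.54, SE 0.22, 95% interval -2.07 to -1.01, limma adjusted p = 0.00394). Mrpl51 read 11.74, 11.50 and 11.51, then 11.28 and 11.49, then 11.35 (-0.20, SE 0.14, 95% interval -0.52 to 0.13, limma adjusted p = 0.341). Here too the intervals did not overlap. The stretch printed above is the 99 bases between the annotated ends of these genes, not the 614 between the starts. It carries 1 ETS match and 1 Sp1 match.

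Mrpl27, whose bacterial counterpart sits near the peptidyl transferase centre, starts 48 bases from Eme1, which encodes a partner of the Mus81 nuclease. Eme1 was down-regulated (-0.76, SE 0.13, 95% interval -1.08 to -0.45, limma adjusted p = 0.00745), and Mrpl27 differed by 0.25 (SE 0.14, 95% interval -0.09 to 0.58, limma adjusted p = 0.244). Ppp1r10, a nuclear regulator of protein phosphatase 1, was down-regulated (-0.68) beside Mrps18b at -0.07, and Gga3, an adaptor of vesicle traffic, was down-regulated (-0.57) beside Mrps7 at 0.12. Zfp189, a zinc finger gene, was up-regulated (0.40) beside Mrpl50 at 0.04. Helq, a DNA helicase gene 159 bases from Mrps18c, differed by -0.63 (SE 0.25, limma adjusted p = 0.111). The differences within pairs were not tested. The summed linear level of the 7 proliferation markers was 20837 to 25836 in the wild-type mice, 7520 and 5195 in animals 14 and 17, and 25523 in animal 6, and its part in the fall of Ska3, Ncapd2 and Eme1 was not tested.

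**Figure D5:**
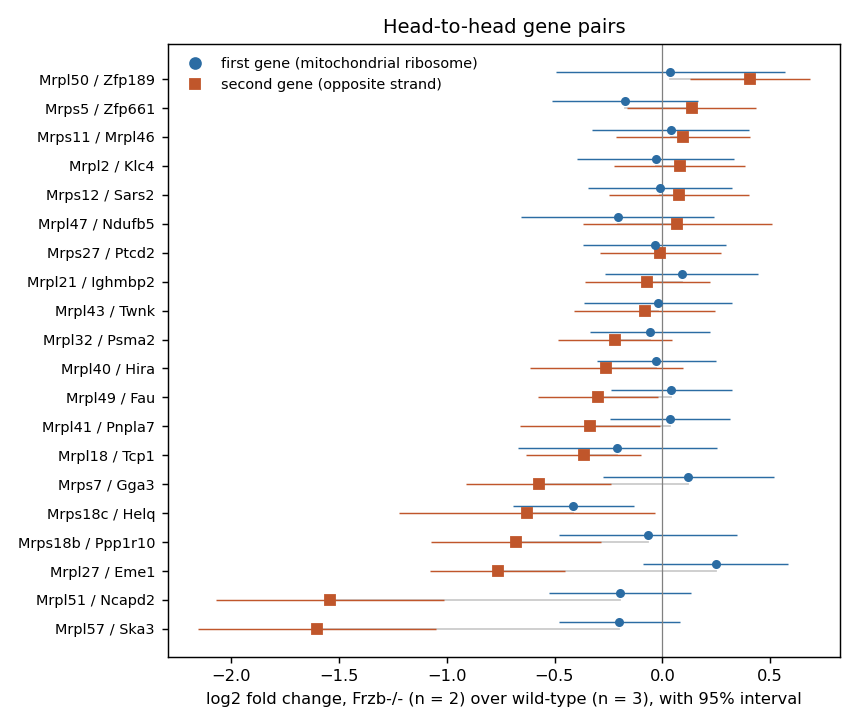
Log2 difference between the Frzb-/- mice 14 and 17 and the 3 wild-type mice with 95% intervals (x axis) for each mitochondrial ribosomal protein gene (circles) and its head-to-head neighbour (squares), 1 pair per row. The circles stay between -0.41 and 0.25, while the squares reach -1.60 for Ska3 and -1.54 for Ncapd2.

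Neighbours that also serve mitochondria were among those that did not pass. Twnk, the mitochondrial DNA helicase, differed by -0.08 beside Mrpl43 at -0.02. Sars2, the mitochondrial seryl-tRNA synthetase, differed by 0.08 beside Mrps12 at -0.01, and Ndufb5, a complex I subunit, by 0.07 beside Mrpl47 at -0.21. Mrps11 and Mrpl46, which face each other across 41 bases, differed by 0.04 and 0.09.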

How the data were processed

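Total RNA of 6 mice was hybridised to 6 single-colour arrays. The deposited table holds log2 RMA values that the authors computed with affy 1.20.0, according to the submitters' processing notes, after the authors removed control probe sets and those without a present call. RMA normalises all arrays together and compresses small differences of dim probe sets. Gene symbols came from GEO's platform annotation (4851 probe sets had no gene and 677 several) and were updated where RefSeq allowed.

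Animals 14 and 17 were compared with the 3 wild-type mice by limma 3.58.1 (R 4.3.3; lmFit, eBayes, two-sided, Benjamini-Hochberg adjustment over 30618 probe sets), with no filter on low values. Animal 6 was compared in a fit of all 6 arrays with 3 groups. Nothing in the sources says that samples were processed in batches. Because each mouse is 1 array, p-values reflect the spread between mice and arrays together. Scripts were tested on simulated data. Calls were an adjusted p below 0.01 with an absolute log2 difference above 1, as in the study, or an adjusted p below 0.05.

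Members, gene lists and comparisons were chosen with earlier results of these data known. The lists were written from general knowledge. Named by rule were members passing a call, the 3 farthest in animal 6, members with a called probe set opposing another, the 2 largest called changes of each other list, ribosomal proteins under other names, and Frzb. Single cell type markers that the rule covers are not listed. Promoter windows and coordinates were those of RefSeq on GRCm38.p6, the first listed per gene. Summed levels are sums of the values raised to base 2 over a list. Alternatives covered left-out mice, animal 6 as a knockout, variance moderation, array weights, normalisation, scaling, dim probe sets and the probe set per gene. Figures were drawn with matplotlib 3.10.9 in Python 3.11.15.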

Additional observations from a re-analysis of the deposited data

How the results depend on the processing

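At the threshold of the study no member was lower or higher under any alternative tried, and the median over members kept within the spread of the main value. Among the members the calls of Mrps18c, Mrpl48, Mrpl11 and Mrps9 depended on the processing. The number of members down-regulated at an adjusted p below 0.05, 1 in the comparison as reported, was 0 to 0 on leaving out each mouse in turn. It was also 0 with animal 6 counted as a knockout, without moderation of the variances (Mrps18c adjusted p = 0.0716), with array weights (0.0573), with each array centred on its median (0.0751) or on its brightest 25 percent (0.0566), and at an adjusted p below 0.01 with no fold minimum. With the dimmest probe set per gene 3 members were lower and 1 higher, and with all probe sets of a gene averaged 1 was higher, Mrpl48 (0.44, limma adjusted p = 0.0229). At its dimmest probe set Mrpl11 turned to -0.46. Under the scalings added after seeing the data, animal 6 was below every wild-type mouse in 54 to 62 members, animal 6-1 was the highest wild-type mouse in 68, and animal 17 was above animal 14 in 63 to 68. Also added after seeing the data, the number of lower biogenesis regulators, assembly factors and head-to-head neighbours was 0 each with animal 6 counted as a knockout and 0 each without moderation of the variances. The share of all genes called under these settings is not given here. Whether these zeros, or those of the members, are particular to these genes therefore cannot be told. No paired analysis was possible because the titles give animal numbers and not replicate numbers shared by the groups. With 2 knockouts against 3 wild-type mice the median half-width of the 95% intervals was 0.335, which limits how small a difference can be told from 0 for most members.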
